A study of Rattus norvegicus with 102 samples.

Results

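The genes described here encode subunits of the N-methyl-D-aspartate (NMDA) receptor, a glutamate-gated ion channel. They were taken by their exact gene symbols in the deposited tables, and the 6 were Grin1, Grin2a, Grin2b, Grin2c, Grin2d and Grin3a, of 26284 genes in the Illumina and WT tables and of 26341 in the Ion Proton table. The receptor is a tetramer that needs the GluN1 subunit encoded by Grin1. GluN1 binds the co-agonist glycine or D-serine, the GluN2 subunits encoded by Grin2a to Grin2d bind glutamate and set the channel's kinetics, and the GluN3A subunit encoded by Grin3a lowers calcium permeability and magnesium block. In the hippocampus, calcium entry through NMDA receptors triggers the lasting changes in synaptic strength on which spatial learning depends, and GluN2B gives way in part to GluN2A as the brain matures.

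The libraries came from 34 male Fischer 344 rats, a strain that the labels spell Fisher 344. Each rat gave dissected tissue from 3 hippocampal subfields, CA1, CA3 and the dentate gyrus (DG). Young rats (Y, 10 rats, 5 to 6 months old) were compared with aged rats of 17 to 22 months that a water maze probe trial had classed as aged-unimpaired (OG in the labels, 12 rats) or aged-impaired (OB, 12 rats). The labels name no genotype or drug that differed between groups, and aged rats had been split by performance alone. The same samples were measured in 3 tables: poly-A RNA on an Illumina sequencer, poly-A RNA on an Ion Proton sequencer, and a table named WT in its title, whose library type is not given in the sources used here. Replicates were separate rats, while the 3 tables are repeat measurements of the same tissue and not independent samples.

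Values are normalised reads, that is, gene counts divided by 1 size factor per library. Libraries held 3.247 to 42.751 M gene reads (M, mega) in the Illumina table (median 10.746), 4.47 to 21.434 in the Ion Proton table (median 9.738) and 3.539 to 20.626 in the WT table (median 8.069). A median library held 7102 Illumina reads of Grin1, 1377 of Grin2a, 641 of Grin2b, 1342 of Grin2c, 139 of Grin2d and 117 of Grin3a, so counting error, which is not the spread between rats, was largest for Grin2d and Grin3a. Transcript lengths for this annotation were not used, so levels are compared between subfields and groups and never between genes. The tissue pieces were bulk samples, in which fewer cells of a type and less RNA per cell cannot be told apart.

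Not every library matched its label. By the subfield marker genes, 8 of the libraries, from 5 aged rats, were nearer to another subfield than to their own in both poly-A tables. A further check, chosen after seeing the data, found 10 libraries that stood far from the median profile of their group in a poly-A table, 5 in each. CA1 markers were higher in CA1 than in CA3 and DG for 5 of 5 genes tested, and DG markers were lower in CA1 and in CA3 than in DG for 5 of 6 genes, but 5 of these 6 were also higher in CA1 than in CA3. Only 3 of 6 CA3 markers were lower in CA1 than in CA3.

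The rats carry numbers of 2 series, 18 rats below 9000 and 16 from 9000 up, with young, aged-unimpaired and aged-impaired rats in both (5, 6 and 7 rats against 5, 6 and 5). The sizes of the series equal those of the cohorts of the 2 sites in the study's design, but no label ties a rat to a site. The series is treated here as a batch of rat numbers only.

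Grin3a, the glycine-binding subunit of low calcium permeability, showed the largest subfield difference of the 6 genes. It was lower in DG than in CA1 and in CA3 in all 3 tables. In the Illumina table CA1 libraries held 66.588 normalised reads at the lowest, 147.87 at the median and 298.69 at the highest (n = 34). CA3 libraries held 68.177, 151.95 and 325.23, and DG libraries 35.105, 62.57 and 210.15. The DG median lay under the lowest library of either other subfield, although 14 of 34 DG libraries lay within the CA1 range and 13 within the CA3 range. CA1 exceeded DG by a log2 difference of 1.12 (SE 0.14, limma adjusted p 7.02e-11), and the Ion Proton and WT tables gave log2 differences of 0.94 (adjusted p 0.00087) and 1.06 (8.23e-11). CA3 exceeded DG by 1.05, or 2.07-fold (SE 0.14, adjusted p 5.07e-10), against 1.02 and 1.16 in the other tables. Within rats, CA3 exceeded DG in 31, 32 and 34 of 34 rats in the Illumina, Ion Proton and WT tables, and CA1 exceeded DG in 30, 28 and 30. The highest DG library, 210.15, was an aged-unimpaired library of rat R2232 and was 1 of the 8 nearer to another subfield, here CA1.

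**Figure D1:**
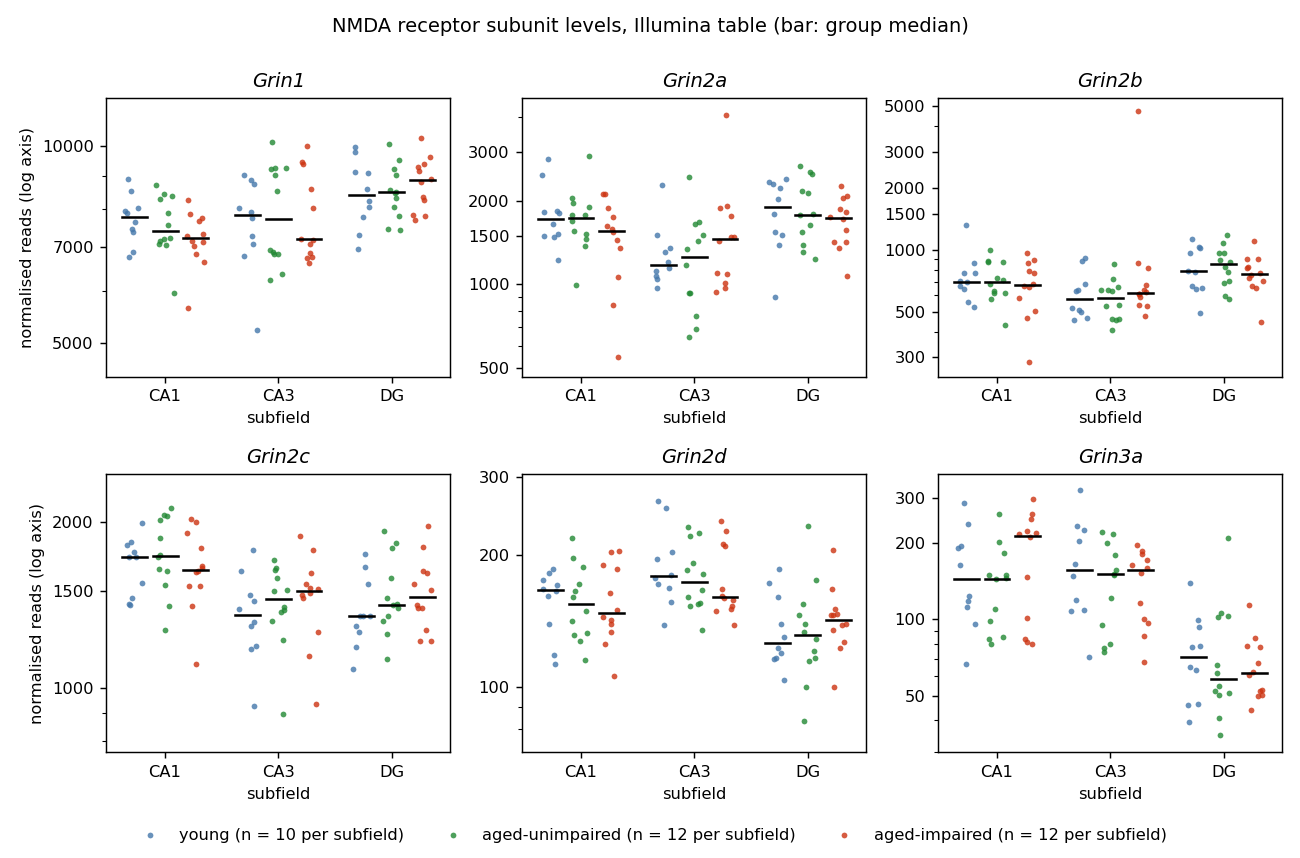
Normalised reads of each subunit gene in the Illumina table (vertical log axis) by subfield, with 1 point per library and a bar at the median of young (n = 10), aged-unimpaired (n = 12) and aged-impaired (n = 12) rats. Grin3a points sit lower in DG (median 62.57) than in CA1 and CA3 (147.87 and 151.95), while the 3 groups within a subfield overlap for every gene; the isolated Grin2b point at 4742.8 is a CA3 library of an aged-impaired rat.

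For each pair of subfields a gene was called when the 2 poly-A tables each gave it a limma adjusted p below 0.05, over all genes tested, and the same sign. Between CA1 and DG 3 of 6 subunit genes were called, all higher in CA1, where 26.9% of all genes tested were called (13.4% higher and 13.5% lower in CA1). Between CA3 and DG it was also 3 of 6, of which 2 were higher in CA3, beside 28.5% of all genes (14.1% higher and 14.3% lower). Between CA1 and CA3 it was 2 of 6, both higher in CA1, beside 14.4% (7.26% higher and 7.09% lower). No pair of subfields was separated without overlap for any subunit gene in any table.

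Grin2a, which encodes the GluN2A subunit that prevails at mature synapses, was lowest in CA3. The CA3 libraries of the Illumina table held 647.9, 1255.5 and 4076.1 normalised reads (lowest, median and highest), the CA1 libraries 547.86, 1636.3 and 2910.4, and the DG libraries 899.82, 1783.6 and 2674.9. The ranges overlapped widely, and the shift was one of medians and of within-rat differences. CA3 lay under DG by a log2 difference of -0.44 (SE 0.11, limma adjusted p 0.000411), with -0.43 in the Ion Proton and -0.23 in the WT table. CA1 lay over CA3 by 0.31 (SE 0.11, adjusted p 0.0213), with 0.47 and 0.38 in the other tables, and in 29, 30 and 30 of 34 rats. CA1 and DG, the neighbours at the top of the order, did not differ beyond their spread (-0.13, 95% interval -0.35 to 0.09; Ion Proton 0.03; WT 0.16, adjusted p 0.0528, with CA1 higher in 23 of 34 rats). The highest CA3 value, 4076.1, came from an aged-impaired library of rat R9875 that was nearest to CA1 in its markers. Without the libraries nearer to another subfield the log2 differences grew to 0.38 for CA1 against CA3 and -0.52 for CA3 against DG.

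Grin2b encodes GluN2B, the subunit of slower channels that is prominent in the young forebrain. Its subfield order depended on the sequencer. In the Illumina table CA1 libraries held 284.93, 688.93 and 1324.6 normalised reads (lowest, median and highest), CA3 libraries 407.12, 614.34 and 4742.8, and DG libraries 446.62, 787.4 and 1182.0, so that DG had the highest median. In the Ion Proton table the CA1 median was 1849.2, the CA3 median 1388.7 and the DG median 1526.8, so that CA1 had the highest. The 2 tables thus gave opposite signs for CA1 against DG, -0.20 (SE 0.11, limma adjusted p 0.114) and 0.30 (adjusted p 0.00391), while WT gave 0.12 (adjusted p 0.0624) with CA1 the higher in 25 of 34 rats. No direction is given for this pair. For CA1 against CA3 the log2 difference was 0.12 in Illumina (adjusted p 0.415), 0.44 in Ion Proton (5.15e-05) and 0.19 in WT (0.003). The Illumina value rested on 1 library: without the CA3 library of rat R9875 at 4742.8 it was 0.21 (adjusted p 0.0404) and Grin2b was called, and without all libraries nearer to another subfield it was 0.24. CA1 was the higher in 27, 29 and 26 of 34 rats. Without R9875 the CA1 and DG pair stayed opposite in sign, at -0.20 in Illumina (adjusted p 0.0354) and 0.30 in Ion Proton (adjusted p 0.00408). That library had the fewest reads of the Illumina table, 3.247 M, and its Ion Proton and WT values, 1556.1 and 3528.9, lay within the range of the other CA3 libraries.

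Grin2c, which encodes the GluN2C subunit found in cerebellar granule cells, interneurons and astrocytes, was highest in CA1. The Illumina levels were 1103.8, 1691.8 and 2120.8 normalised reads in CA1 (lowest, median and highest), 897.07, 1460.9 and 1885.5 in CA3, and 1080.2, 1404.8 and 1964.1 in DG. The 3 ranges shared most of their span. CA1 exceeded CA3 by 0.26 (log2, SE 0.06, limma adjusted p 0.000102; Ion Proton 0.36, adjusted p 0.0494), in 28, 25 and 25 of 34 rats. CA1 exceeded DG by 0.22 (SE 0.06, adjusted p 0.000647; Ion Proton 0.39, adjusted p 0.0174), in 30, 28 and 18 rats, and the WT table gave 0.04 (adjusted p 0.734). CA3 and DG did not differ beyond their spread (-0.04, 95% interval -0.15 to 0.07). The Ion Proton adjusted p of the CA1 and CA3 pair lay just under the threshold, and this call was lost in 8 of the alternative analyses, edgeR and DESeq2 among them, with log2 differences of 0.12 to 0.38.

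Grin2d encodes GluN2D, a subunit of very slow channels that persists mainly in interneurons of the adult hippocampus. It was lowest in DG in both poly-A tables. The Illumina levels were 83.343, 136.37 and 232.76 normalised reads in DG (lowest, median and highest), 105.8, 160.55 and 218.26 in CA1, and 134.98, 169.66 and 265.09 in CA3. Most DG libraries fell within the CA1 range. CA3 was 1.31-fold over DG (log2 0.39, SE 0.07, limma adjusted p 4.22e-07; Ion Proton 0.55, adjusted p 0.00351; WT 0.31, 0.0165), in 31, 27 and 23 of 34 rats. CA1 was called over DG by 0.19 (SE 0.07, adjusted p 0.0145; Ion Proton 0.43, 0.0267), but the WT table gave -0.07 (adjusted p 0.621). CA1 and CA3 differed in Illumina (-0.21, adjusted p 0.0103) but not past the threshold in Ion Proton (-0.12, adjusted p 0.66), and WT gave -0.38 (adjusted p 0.00465). The Illumina difference was -0.02 (adjusted p 0.882) in rats below 9000 and -0.42 (adjusted p 0.0011) in rats from 9000 up, with -0.08 and -0.18 in Ion Proton.

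Grin1, which encodes the subunit every NMDA receptor contains, was called in no pair of subfields. Its Illumina levels were 5666.2, 7423.5 and 8914.8 normalised reads in CA1 (lowest, median and highest), 5232.8, 7526.2 and 10137 in CA3, and 6966.9, 8537.2 and 10282 in DG. DG had the highest median in all 3 tables, and CA1 was under DG in 30 of 34 rats in Illumina and in WT. The log2 difference of CA1 against DG was -0.20 (SE 0.04, limma adjusted p 4.53e-05) in Illumina, -0.18 (0.000482) in WT and -0.08 (0.575) in Ion Proton.

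**Figure D2:**
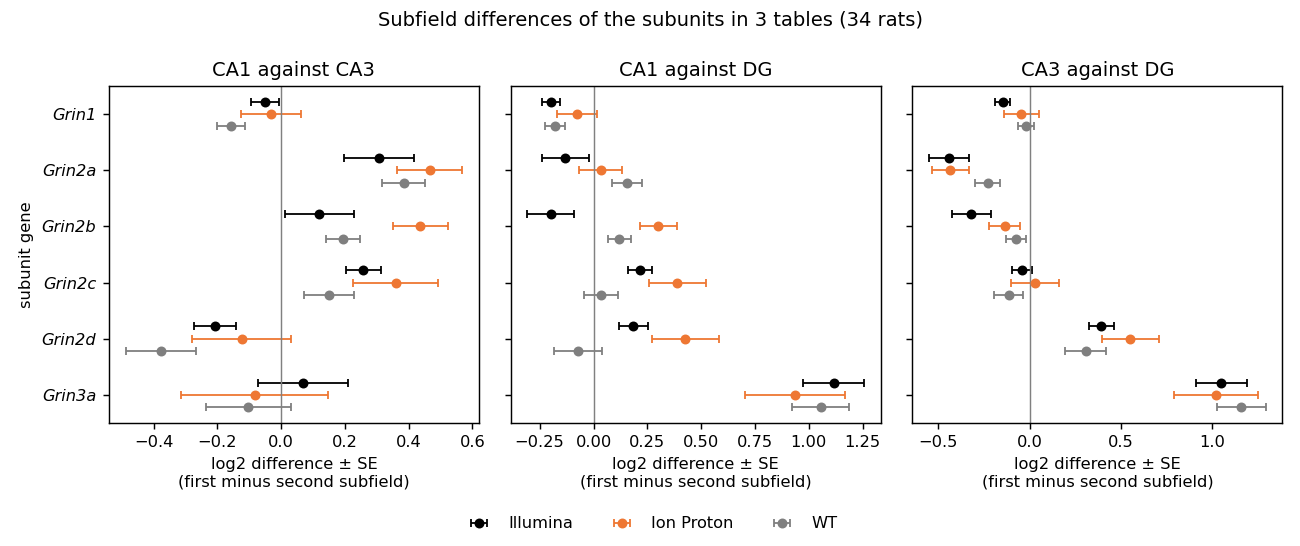
Log2 difference (first minus second subfield, with SE bars) of each subunit gene for the 3 pairs of subfields, in the Illumina (black), Ion Proton (orange) and WT (grey) tables, 34 rats in each. Grin3a lies near 1 against DG in all 3 tables, whereas Grin2b in CA1 against DG lies at -0.20 in Illumina and 0.30 in Ion Proton.

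Markers of several cell types moved with these differences. Of the interneuron markers (Gad1, Gad2, Slc32a1, Pvalb, Sst, Vip, Lhx6 and Cck), 4 of 8 were called higher in CA1 than in DG and 4 of 8 higher in CA3 than in DG, and none lower, beside 13.4% and 14.1% of all genes called higher. Their mean log2 level was 8.7352 to 9.9719 in CA1 (median 9.58), 8.4402 to 9.8121 in CA3 (median 9.54) and 8.3607 to 9.5593 in DG (median 9.07). Of the oligodendrocyte markers 6 of 6, and of the oligodendrocyte precursor markers 4 of 4, were higher in CA1 and in CA3 than in DG. Members of other lists were higher too, namely endothelium (3 of 4 in CA1 and none in CA3), choroid plexus (2 of 4 and 1 of 4), microglia (1 of 6 and 4 of 6), astrocyte (none and 2 of 6) and thalamus (2 of 4 and 1 of 4). None of the interneuron and oligodendrocyte lineage lists holds a gene at a median of 0. The part of these cell types in the lower Grin3a and Grin2d of DG was not tested.

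Over all rats, CA1 and CA3 levels of Grin3a lay within their spread of each other (log2 difference 0.07, SE 0.14, limma adjusted p 0.741; Ion Proton -0.08, and 0.13 without the CA1 library of R9874; WT -0.10). This near-zero average held opposite differences in the 2 number series. In rats numbered below 9000, CA1 libraries held 84.809, 214.06 and 298.69 normalised reads (lowest, median and highest; Illumina, n = 18) and CA3 libraries 71.135, 117.75 and 199.72. In rats numbered from 9000 up, CA1 libraries held 66.588, 99.501 and 163.64 (n = 16) and CA3 libraries 68.177, 184.19 and 325.23. The higher subfield was thus CA1 in the first series and CA3 in the second, with overlapping ranges in both.

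Within rats the split was nearly complete. CA1 exceeded CA3 in 18 of 18 rats below 9000 in the Illumina table and 18 of 18 in Ion Proton, and in 16 of 18 in WT. From 9000 up it did so in 3, 3 and 2 of 16. The median within-rat log2 difference was 0.71 in the first series and -0.91 in the second (Illumina). In fits to 1 series the log2 difference was 0.72 (SE 0.16, limma adjusted p 0.00019; Ion Proton 0.83, 0.000661) below 9000 and -0.67 (SE 0.17, adjusted p 0.0065; Ion Proton -1.11, 0.0689) from 9000 up. The Ion Proton value held the CA1 library of aged-impaired rat R9874 at 0 Grin3a reads, and without that library CA1 minus CA3 was -0.64 in Illumina (adjusted p 0.0109) and -0.68 in Ion Proton (adjusted p 0.0251), past the threshold in both.

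The difference between the series was tested as an interaction, a test added after the split was seen. For Grin3a in CA1 against CA3 it was 1.39 on the log2 scale (limma adjusted p 1.8e-06), with 1.93 (adjusted p 0.00025) in Ion Proton and 1.20 (2.2e-05) with the WT table in place of Illumina. Grin3a was the 1 of 6 subunit genes called, where 13.9% of all genes tested were called (5.48% with a positive and 8.44% with a negative sign). The call was kept under all 10 alternatives run, with values of 1.20 to 1.50 in the first table, including 1.42 without the libraries that stood apart and 1.50 without those nearer to another subfield. Against DG the levels were called in CA3 in both series (log2 0.91 below 9000 and 1.20 from 9000 up). CA1 was called over DG below 9000 (1.63, adjusted p 2.55e-12; Ion Proton 1.65), whereas from 9000 up the Illumina difference of 0.53 (adjusted p 0.0135) did not pass in Ion Proton (0.13, adjusted p 0.81). This too rested on the library of R9874: without it the differences were 0.56 (adjusted p 0.0124) and 0.55 (adjusted p 0.0207), past the threshold in both tables. The interaction for CA1 against DG was 1.10 (adjusted p 0.017), and Ion Proton gave 1.52 (adjusted p 0.073), so it was not called, beside 0.108% of all genes. With the rat as a replicate block it passed in both tables (adjusted p 0.0043 and 0.039), as it did with DESeq2 (0.0054 and 0.028) and with quantile normalisation (0.019 and 0.039). It passed in neither table with WT in place of Illumina (0.65, limma adjusted p 0.085) or without the deeply sequenced rats (1.09, adjusted p 0.083). Without the library of R9874 it was 1.08 and 1.10 (adjusted p 0.0259 and 0.0557). For CA3 against DG it was -0.29 (adjusted p 0.34), beside 17.2% of all genes called. The library of R9874, at 0 Grin3a reads in Ion Proton, held 81.494 normalised reads in Illumina and 123.44 in WT. It stood apart from its group, and 60 of the 12358 Ion Proton genes with a mean of at least 50 normalised reads were listed at 0 in it.

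**Figure D3:**
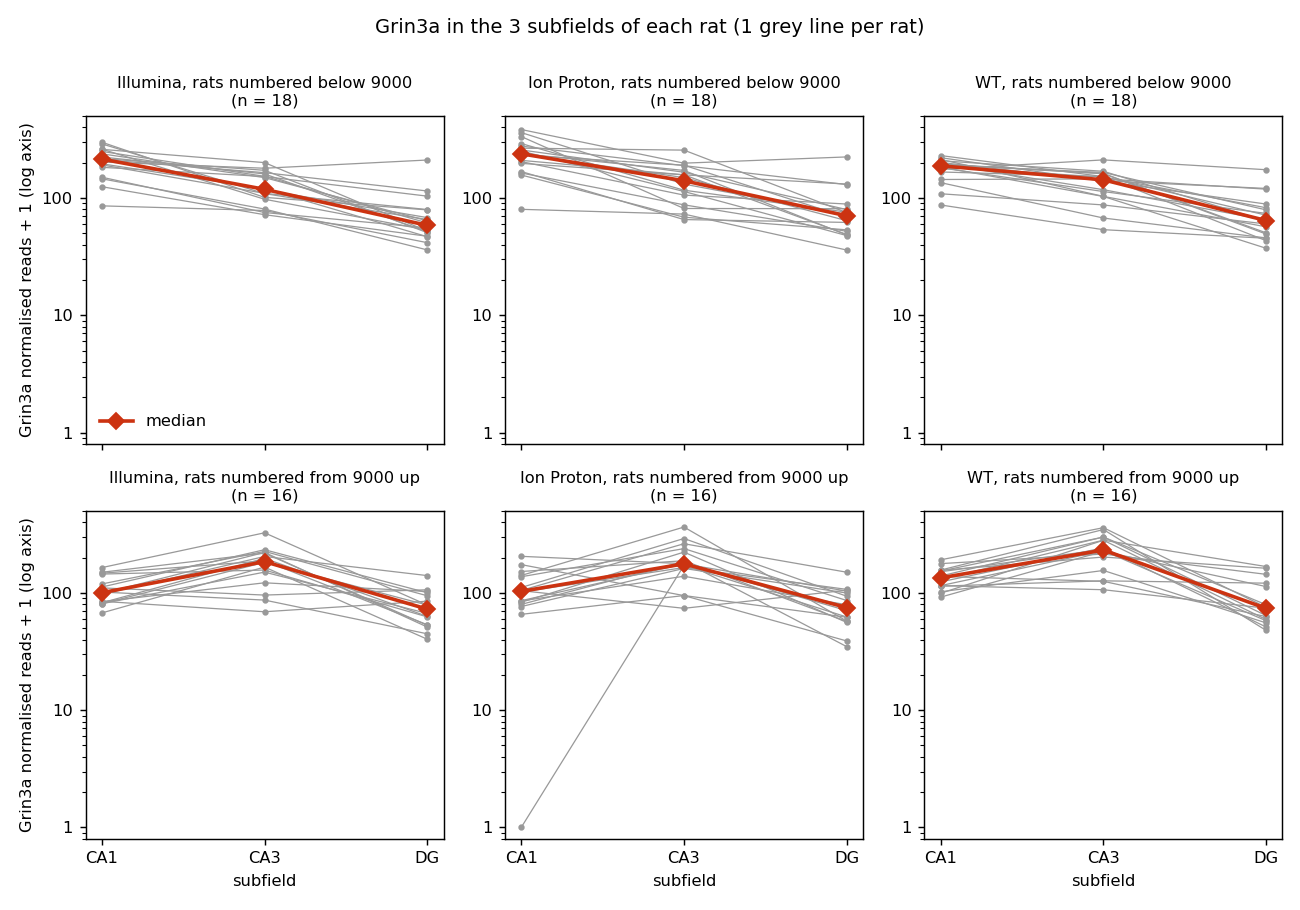
Grin3a normalised reads plus 1 (vertical log axis) in CA1, CA3 and DG for the 18 rats numbered below 9000 (top) and the 16 numbered from 9000 up (bottom), in the Illumina, Ion Proton and WT tables, with 1 grey line per rat and the median in red. The median falls from CA1 to CA3 in the top row (214.06 to 117.75 in Illumina) and rises in the bottom row (99.501 to 184.19); the Ion Proton point at 1 is the library with no Grin3a read.

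Subfield and cell type markers also differed between the series. In CA3 libraries the mean log2 level of the CA1 markers ran from 5.5784 to 7.9331 (median 7.30) below 9000 and from 6.8363 to 9.0055 (median 8.41) from 9000 up. In CA1 libraries the same list ran from 8.8887 to 9.6501 (median 9.35) and from 5.973 to 9.5679 (median 8.86). In the same interaction of CA1 against CA3, 4 of 5 CA1 markers and 3 of 6 DG markers were called with a positive sign, as Grin3a was, and 6 of 6 oligodendrocyte, 2 of 4 oligodendrocyte precursor, 2 of 6 CA3 and 2 of 3 excitatory neuron markers with a negative one, as was 1 marker each of the astrocyte, microglia and choroid plexus lists. Interneuron markers were called for 1 of 8, and their median in CA1 libraries was 9.74 below 9000 and 9.35 from 9000 up, against 9.50 and 9.62 in CA3 libraries. The part of the dissected cells in the Grin3a split was not tested, and rat number series, cohort and dissection cannot be told apart.

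No other subunit was called in the series interactions, although levels and some subfield differences of the other genes were unlike in the 2 series. Grin1 in CA3 libraries ran from 7094.7 to 10137 normalised reads (median 8944.1) below 9000 and from 5232.8 to 7762.5 (median 6832.7) from 9000 up, and only a few rats of each series fell within the range of the other. The interaction of Grin1 for CA1 against CA3 was -0.18 (limma adjusted p 0.0101; Ion Proton -0.28, 0.275). Grin2c in CA3 against DG changed sign between the series, with -0.22 (adjusted p 0.0216; Ion Proton -0.29, 0.39) below 9000 and 0.16 (adjusted p 0.00851; Ion Proton 0.39, 0.0045) from 9000 up. Grin2a in CA1 against CA3 was called from 9000 up (0.48, adjusted p 0.0449, and 0.0506 without the library of R9874) and not below 9000 (0.16, adjusted p 0.31). It was under DG in CA3 by -0.64 (adjusted p 0.00182) from 9000 up and by -0.26 (0.0789) below 9000. Grin2d was over DG in CA3 by 0.50 and 0.29 in the same order, and the second was not called because of Ion Proton (0.34, adjusted p 0.328).

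The subunit genes were then compared between age and performance groups within each subfield. A gene was called here when its limma p was under 0.01 in Illumina and its one-sided p under 0.05 in the same direction in Ion Proton, with no adjustment, since these were the thresholds of the study. None of the 6 subunit genes was called for aged against young rats in CA1, CA3 or DG, where 0.851%, 0.402% and 1.09% of all genes tested were. None was called for aged-impaired against aged-unimpaired rats, where the shares were 0.635%, 0.0216% and 0.124%. None was called for aged-impaired against young (0.829%, 0.351% and 0.991%) or for aged-unimpaired against young (0.671%, 0.287% and 0.663%), 2 comparisons that share the young rats.

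Across these 12 comparisons, 0 of 72 tests of subunit genes had a limma p under 0.05 in Illumina, without adjustment. edgeR gave 2 of 72 and DESeq2 0 of 72 on the recovered reads, and 4 of 72 passed in the WT table. None passed adjustment. Aged minus young differences ran from -0.23 to 0.11 on the log2 scale. The 95% intervals of the Illumina fits reached from -0.64 to 0.55 over all genes and subfields, with half-widths of 0.11 to 0.47, and those of Ion Proton from -1.27 to 0.82, with half-widths of 0.20 to 1.05. The widest was that of Grin3a in CA1, which held the Ion Proton library of R9874 at 0 reads. These widths are no limit of detection, and true changes inside the intervals were not told apart from 0. Within 1 number series the differences over age and performance groups ran from -0.43 to 0.56 (below 9000) and from -0.65 to 0.76 (from 9000 up), with 2 of 72 at an unadjusted p under 0.05 in each and no call.

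Levels of Grin3a in CA1 show how wide the groups were. Young CA1 libraries held 66.588, 143.83 and 289.06 normalised reads (lowest, median and highest), aged-unimpaired ones 79.974, 144.52 and 259.41, and aged-impaired ones 79.931, 214.06 and 298.69. All 3 groups covered nearly the same range, although the aged-impaired median was the highest. Aged-impaired minus aged-unimpaired was 0.31 in Illumina (95% interval -0.19 to 0.80), -0.35 in Ion Proton (p 0.588) and 0.11 in WT. The negative sign rested on the CA1 library of R9874 at 0 reads, and without it the differences were 0.40, 0.28 and 0.14 in the same order (limma p 0.107, 0.386 and 0.384). Without all libraries that stood apart it was 0.58 in Illumina (p 0.0272) and 0.65 in Ion Proton (p 0.0269), and it was not called. That fit left out the aged-unimpaired CA1 libraries of R2230 and R2232, below 9000, at 181.93 and 201.89 Illumina reads. It also left out the aged-impaired ones of R9870 and R9874, from 9000 up, at 100.91 and 81.494. The number series were thus less balanced in that fit, where series and impairment cannot be told apart. With all libraries kept, the aged-impaired group held 7 rats of the series below 9000, in which CA1 levels were higher, and 5 of the other. The aged-unimpaired group held 6 and 6.

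Grin2a in CA1 had the largest negative difference of aged-impaired from aged-unimpaired rats in the Illumina table. Aged-impaired CA1 libraries held 547.86, 1563.9 and 2121.8 normalised reads (lowest, median and highest) and aged-unimpaired ones 993.13, 1729.8 and 2910.4. The groups overlapped in most of their range. The log2 difference was -0.28 (SE 0.18, 95% interval -0.65 to 0.10, limma p 0.145), with -0.19 in Ion Proton (p 0.229) and -0.33 in WT (p 0.017). Without the lowest aged-impaired library, that of R1931, it was -0.15 in Illumina (p 0.32), -0.15 in Ion Proton and -0.32 in WT.

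Grin2b in CA3 had the largest positive one with all libraries in the fit, and this rested on 1 library. Aged-impaired CA3 libraries held 475.16, 614.34 and 4742.8 normalised reads and aged-unimpaired ones 407.12, 583.73 and 857.73. The medians were close, and 1 aged-impaired library lay far above the rest. The log2 difference was 0.37 (SE 0.25, limma p 0.152), with 0.36 in Ion Proton (p 0.00639) and -0.05 in WT (p 0.65). Without the CA3 library of R9875, which was nearer to CA1, it was 0.13 in Illumina (p 0.277), 0.37 in Ion Proton (p 0.00821) and -0.06 in WT. Without all libraries that stood apart, among them the aged-impaired CA3 libraries of R1931 and R9781 in Ion Proton, it was 0.09 in Illumina (p 0.456) and 0.20 in Ion Proton (p 0.0614). For Grin1 in CA1, the log2 difference of aged-impaired minus young rats was negative in every table. It was -0.15 in WT (limma p 0.00612), -0.10 in Illumina (p 0.101) and -0.03 in Ion Proton (p 0.808). Only the WT difference had an unadjusted p under 0.05.

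**Figure D4:**
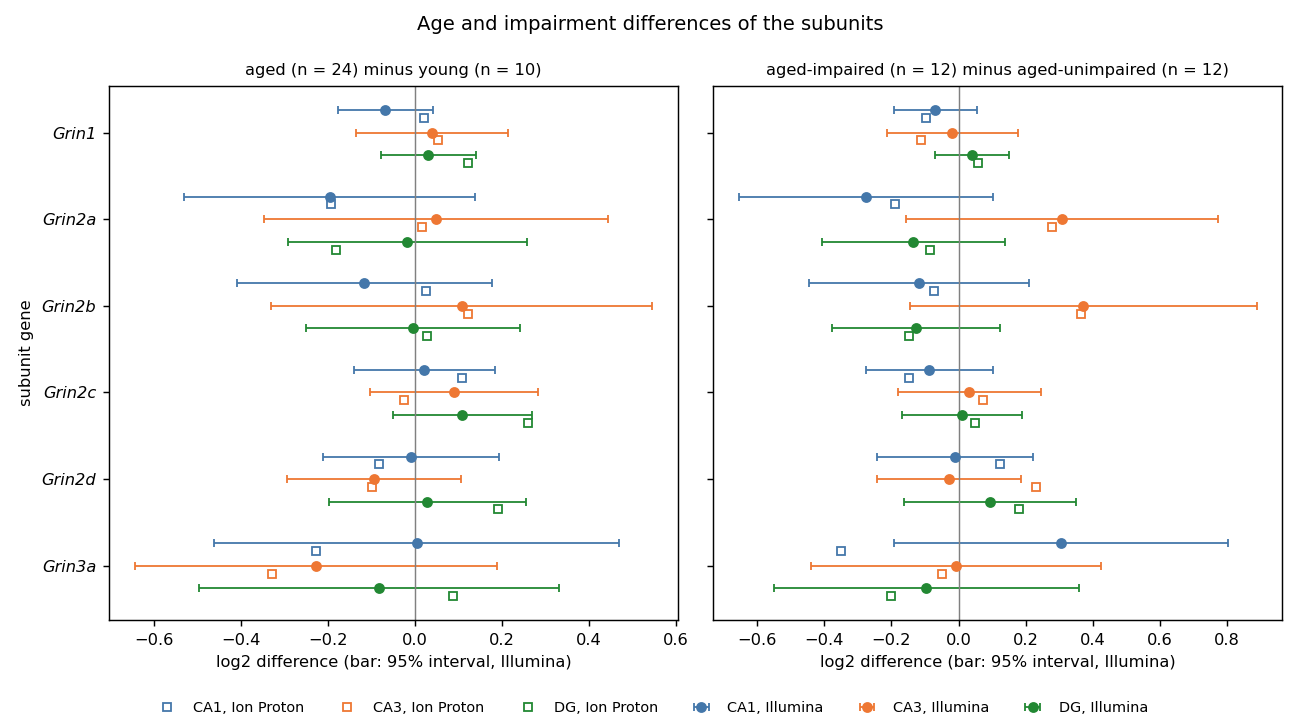
Log2 difference of each subunit gene for aged minus young rats (left) and aged-impaired minus aged-unimpaired rats (right) in CA1, CA3 and DG, with filled points and 95% interval bars for Illumina and open squares for Ion Proton. Every Illumina interval includes 0, and the widest belong to Grin3a, Grin2a and Grin2b.

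The difference of the age effect and of the impairment effect between subfields was tested as well. No subunit gene was called in any of the 6 interactions, and neither was any of the 14179 or 14186 genes tested (0%, limma adjusted p under 0.05 in Illumina). At an unadjusted p under 0.05, 0 of 18 tests of subunit genes passed for age and 1 of 18 for impairment.

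The balance of Grin2b and Grin2a was followed in each library as the log2 ratio of their normalised reads plus 1. The ratio's level depended on the table, with 0.433, 0.468 and 0.446 Grin2b reads per Grin2a read in the median CA1, CA3 and DG library of the Illumina table, 0.682, 0.725 and 0.57 in Ion Proton and 1.17, 1.38 and 1.18 in WT. Since reads were not scaled by transcript length, the ratio is no ratio of molecules. None of 9 permutation tests of the ratio (100000 resamples, two-sided, 3 for age, 3 for impairment and 3 for pairs of subfields, the last within rats) had an adjusted p under 0.05 in both poly-A tables in the same direction. Without adjustment, 3 of the 9 were under 0.05 in Illumina and 2 of the 9 in Ion Proton.

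In CA1, aged-impaired libraries had a log2 ratio of -1.42 at the lowest, -1.10 at the median and -0.85 at the highest in Illumina, and aged-unimpaired libraries -1.54, -1.24 and -1.10. The aged-impaired values reached higher, and the ranges overlapped. The difference was 0.16 (permutation p 0.0194, adjusted p 0.0874), with 0.12 in Ion Proton (permutation p 0.58) and 0.13 in WT (permutation p 0.0662). Among the subfields, CA1 lay under CA3 by -0.19 in Illumina (permutation p 0.0119, adjusted p 0.0874) and by -0.19 in WT (adjusted p 0.00432), and by -0.03 in Ion Proton (adjusted p 0.738). CA3 lay over DG by 0.30 in Ion Proton (adjusted p 0.0117), 0.15 in WT (adjusted p 0.0137) and 0.12 in Illumina (adjusted p 0.15). CA1 minus DG was 0.27 in Ion Proton (adjusted p 0.0114, higher in 23 of 34 rats), -0.07 in Illumina (adjusted p 0.181) and -0.04 in WT (adjusted p 0.452). These Illumina differences depended on the number series: CA1 minus CA3 was 0.10 in rats below 9000 and -0.52 in rats from 9000 up, and CA3 minus DG was -0.11 and 0.38.

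**Figure D5:**
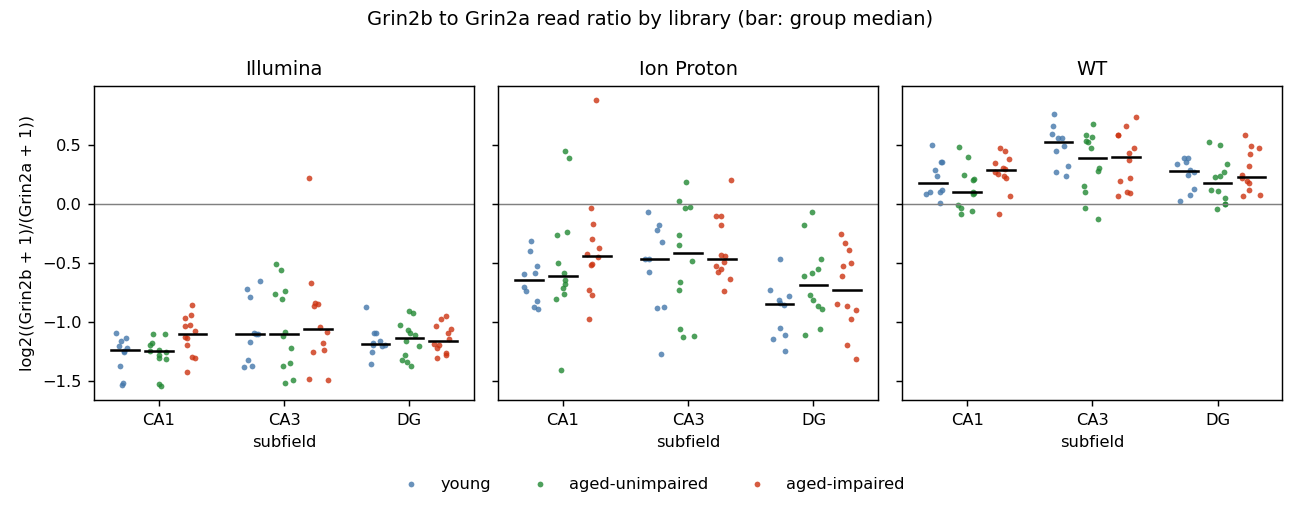
Log2 ratio of Grin2b to Grin2a normalised reads (each plus 1) by subfield and group in the Illumina, Ion Proton and WT tables, with 1 point per library and a bar at the group median. Libraries sit below 0 in Illumina, with 1 exception in CA3, and mostly above 0 in WT, and the groups overlap in each subfield.

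The tables were not equally alike for the subunit genes. Across the libraries of 34 rats in 3 subfields, Pearson's r of the log2 level between Illumina and Ion Proton was 0.832 for Grin2a, 0.783 for Grin2c, 0.755 for Grin3a, 0.581 for Grin2d, 0.568 for Grin1 and 0.396 for Grin2b. Between Illumina and WT it was 0.856 for Grin3a, 0.659 for Grin2c, 0.572 for Grin1, 0.459 for Grin2a, 0.446 for Grin2d and 0.0601 for Grin2b. Grin2b was the gene whose levels were least alike in both. These correlations are descriptions, since the points share rats and subfields and r also depends on how much a gene varies between libraries.

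Other genes of NMDA receptor function were followed in 4 lists of 55 genes, of which 54 were tested in the subfield comparisons. Between CA1 and CA3, 15 of 54 were called (9 higher and 6 lower in CA1), between CA1 and DG 26 (9 and 17), and between CA3 and DG 25 (10 and 15). Of all genes tested, 14.4%, 26.9% and 28.5% were called in these pairs. Many of these differences depended on the number series. In the series interaction, 16 of 54 listed genes were called for CA1 against CA3, beside 13.9% of all genes. For CA3 against DG it was 18 of 54, beside 17.2%, and for CA1 against DG 0 of 54, beside 0.108%. The values given for the lists below pool the rats of both series.

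In the list of scaffolds and trafficking genes, 4 of 16 were higher and 2 lower in CA1 than in CA3, and 6 of 16 were lower and none higher in CA3 than in DG. The list's median log2 difference from DG was -0.21 in CA1 and -0.15 in CA3, beside 0.00 and 0.01 over all genes. The gene with the largest difference in CA1 was Neto1, an auxiliary protein of NMDA and kainate receptors. Neto1 held 570.15, 1025.6 and 2277.4 normalised reads in CA1 (lowest, median and highest), 822.4, 3123.2 and 4375.4 in CA3 and 910.54, 2472.6 and 3372.0 in DG. CA1 values lay mostly under both, with log2 differences of -1.18 against CA3 (limma adjusted p 3.71e-13) and -1.16 against DG (1.58e-13). Ephb2, a receptor tyrosine kinase that clusters NMDA receptors, was lower in CA3 than in DG by -0.71 (adjusted p 7.51e-16), with medians of 150.99 and 258.38.

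Of genes that supply and remove the co-agonists, 5 of 11 were higher and none lower in CA3 than in DG, while 3 were higher and 2 lower in CA1 than in DG. The list's median difference from DG was 0.18 in CA3 and 0.19 in CA1. Slc6a9, the glycine transporter GlyT1 that clears glycine, had its median at 1413.7 normalised reads in CA1, whereas the CA3 median was 1644.1 and the DG median 918.12. It exceeded the DG level by 0.77 in CA3 (log2, limma adjusted p 4.09e-12) and by 0.52 in CA1 (7.52e-07). Shmt2, a serine and glycine converting enzyme, was the 1 gene of the list called between CA1 and CA3 (-0.15, adjusted p 2.19e-05).

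Among kinases and phosphatases that act on the subunits, 3 of 16 were higher and 2 lower in CA1 than in CA3, and 2 were higher and 6 lower in CA1 than in DG. Prkca, a protein kinase C gene, had its median at 1326.6 normalised reads in CA1 and 2568.6 in CA3 (log2 -0.72, limma adjusted p 1.25e-07). Prkcb, another, was higher in CA1 than in DG, with medians of 4568.5 and 3218.9 (0.54, adjusted p 5.89e-15). Dapk1, a death-associated kinase that binds GluN2B, was lower in CA3 than in DG by -0.80 (adjusted p 2.42e-17), with medians of 1023.7 and 1898.0.

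Of 11 downstream genes tested, 3 were higher and 4 lower in CA3 than in DG, and 3 each in CA1 than in DG. Tiam1, a Rac activator, had medians of 2064.7 (CA1), 953.22 (CA3) and 3943.3 (DG) normalised reads, with log2 differences of 0.87 for CA1 against CA3 (limma adjusted p 6.76e-06) and -1.82 for CA3 against DG (2.4e-17). Rasgrf2, a calcium-dependent Ras activator, was lower in CA1 than in DG by -1.26 (adjusted p 6.27e-14), with medians of 798.54 and 1954.8.

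For age, 0 of 54 listed genes were called in each subfield. For impairment 3 of 53 were called in CA1, beside 0.635% of all genes (0.382% higher and 0.252% lower), and 0 of 54 in CA3 and in DG. The paper had already named Neto1, Prkca and Prickle2 for aged-impaired against aged-unimpaired CA1 in these rats, so this count is no independent result. Of the excitatory neuron markers, 1 of 3 tested was called higher and 1 lower in the same comparison. The part of these cells in the calls was not tested. Camk2d, a calcium/calmodulin-dependent kinase gene, held 717.0, 1026.9 and 1342.1 normalised reads in aged-impaired CA1 libraries (lowest, median and highest) and 428.93, 688.1 and 970.15 in aged-unimpaired ones. Every aged-impaired library lay above the aged-unimpaired median, the 2 ranges overlapped, and young libraries ran from 451.71 to 1318.3. The log2 difference was 0.56 in Illumina (SE 0.13, limma p 0.000152, adjusted p 0.308), 0.61 in Ion Proton (p 0.000721) and 0.60 in WT (p 7.38e-05), and the call was kept in 12 of 12 alternatives. Within the number series the Illumina difference was 0.51 below 9000 and 0.61 from 9000 up.

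Neto1 and Prkca were called lower in aged-impaired than in aged-unimpaired CA1. Neto1 medians were 914.48 and 1180.8 normalised reads (log2 -0.47, limma p 0.00298, adjusted p 0.562; Ion Proton -0.44, p 0.0047), and Prkca medians 1241.8 and 1692.1 (-0.46, p 0.00387, adjusted p 0.562; Ion Proton -0.38, p 0.00554). None of the 3 genes passed adjustment over all genes. Neto1 was kept in 8 and Prkca in 9 of 12 alternatives. Without the libraries that stood apart Neto1 was not called (-0.42, p 0.01; Ion Proton -0.33, p 0.019), and Prkca was (-0.52, p 0.003). Both genes were higher in CA3 than in CA1, and without the libraries nearer to another subfield, 1 of them an aged-unimpaired CA1 library, the differences were -0.42 and -0.45 and both were still called. Neto1 differed by -0.21 in rats below 9000 and -0.73 in rats from 9000 up, and Prkca by -0.33 and -0.54. Neither was called in rats below 9000, where 13 aged rats remained. From 9000 up Neto1 was called and Prkca was not (limma p 0.01). Without the deeply sequenced rats neither was called (Neto1 -0.43, limma p 0.016, and Prkca -0.29, p 0.047). In aged-impaired against young rats, 1 of 54 listed genes was called in CA1, beside 0.829% of all genes, 1 of 54 in DG, beside 0.991%, and none in CA3. Prickle2, a scaffold-associated gene, was the 1 in CA1 (-0.27, p 0.00358, adjusted p 0.368) and was kept in 8 of 12 alternatives. Dao, which degrades D-serine, was the 1 in DG (-0.53, p 0.0091, adjusted p 0.625). Dao medians were 12.636 and 17.573 normalised reads, and its call was lost in 6 of 11 alternatives.

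For each subunit gene, the 3 genes with the most similar pattern were taken by the smaller of the Pearson r over all libraries of the Illumina and of the Ion Proton table, among 13889 genes tested in both. For Grin3a they were Tmem132c (0.808), Tpbg (0.782) and Adamts2 (0.75). For Grin2a they were Cnksr2 (0.81), Myt1l (0.801) and Sphkap (0.787), and for Grin2b Ncoa1 (0.75), Frrs1l (0.713) and Dlgap1 (0.691). For Grin1 they were Tecpr1 (0.879), Rangap1 (0.876) and Hid1 (0.871), for Grin2c Ehmt2 (0.817), Rexo1 (0.745) and Pcnxl3 (0.711), and for Grin2d Tox2 (0.755), Cacna1g (0.748) and Sema4g (0.716). The r was highest for the genes nearest Grin1, and the points share rats, subfields and library depth.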

How the data were processed

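Total RNA of CA1, CA3 and DG from 34 rats was sequenced as poly-A libraries on Illumina and Ion Proton instruments, and again for the WT table. Per the labels, the authors used bcl2fastq 2.17, CutAdapt 1.8.3, STAR 2.5, genome build rn5, featureCounts 1.4.4 and DESeq2 1.16.1. The paper names another version of DESeq2. Per the paper, the Ion Proton reads were aligned with TopHat2 and Bowtie2, and the aligner of the WT table is not given in the sources used here. The deposited values are a normalised signal, gene counts divided by 1 size factor per library. Values were whole multiples of a library's step within 0.1 step for 100.0% of those above 0, so whole reads were recovered for the count tests. Strand of counting is not known, so a gene and an antisense transcript cannot be told apart.

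All 6 genes passed a filter of a mean of at least 10 normalised reads. log2(value + 1) was tested with limma 3.58.1 in R 4.3.3 (variance trend on mean, two-sided, Benjamini-Hochberg over all genes tested), and differences are on that scale. Subfield fits held all libraries of a table, age fits 34 and impairment fits 24 libraries of a subfield. Alternatives were a pseudocount of 0.1, no filter, quantile normalisation, edgeR 4.0.16 (quasi-likelihood, TMM), DESeq2 1.42.0, the WT table, number series as covariate or alone, and leaving out 8 libraries nearer another subfield or 7 deeply sequenced rats. Leaving out 10 libraries that stood apart (over 8 median absolute deviations from the group's median correlation), leaving out 1 library that decided a value (CA1 of R9874 or R1931, CA3 of R9875) and the series interaction were added after seeing the data. Scripts were tested on simulated data. Libraries of 1 rat share its number in the labels, so the same animal pairs the subfields; as a replicate block in limma the rat had a consensus correlation of 0.149 in Illumina and 0.0891 in Ion Proton. Depth, 3.247 to 42.751 M reads (M, mega) for Illumina, sets a counting error that is largest for Grin2d and Grin3a. P-values of fits within a subfield measure the spread between rats. Fits over several subfields without the block take the libraries of a rat as separate, so their p-values measure the spread between libraries.

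The genes, the lists and the tests were chosen with earlier results of these data known. Named genes were all 6 subunit genes, all list genes called for age or impairment, the gene of each list and pair of subfields with the largest called Illumina difference, and the 3 genes most like each subunit gene.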

Additional observations from a re-analysis of the deposited data

Results flagged for a closer look

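Among 54 young groups of 10 rats (6 genes, 3 subfields, 3 tables), 6 held a library whose gap to the nearest other, relative to the range of the group, was above Dixon's 95% critical value. For independent groups of normally distributed values chance gives this in about 1 in 20. The groups here are not independent, since the 3 tables measure the same tissue, and reads were taken without a log, so that rate is only a guide. Young rat R1923 held 2276.0 Grin2a normalised reads in CA3 in Illumina and 3655.4 in Ion Proton, where the next highest young libraries held 1512.0 and 2284.2. The same rat held 1324.6 Grin2b normalised reads in CA1 in Illumina, next to 866.4. Young rat R9881 held 149.41 Grin3a normalised reads in DG in Ion Proton, and in WT 167.09 of Grin3a and 106.64 of Grin2d, where the next highest values were 92.845, 78.356 and 67.116. The DG library of rat R9881 was 1 of those that stood apart from their group in Illumina.

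The Grin3a difference of CA1 and CA3 was unlike in the 2 number series, by 1.39 on the log2 scale (limma interaction), as described above.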

How the results depend on the processing

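The number of subunit genes called between CA1 and CA3 fell from 2 to 1 with a pseudocount of 0.1, without a filter, with edgeR and in rats from 9000 up, each time through the loss of Grin2c. Grin2c lost its call in other alternatives too, DESeq2 among them, as given above, so an unchanged count can hold other genes. In rats below 9000 it stayed at 2, but with Grin2b and Grin3a in place of Grin2a and Grin2c. Between CA1 and DG it fell from 3 to 1 in either series alone and with the WT table, and between CA3 and DG from 3 to 1 in rats below 9000, while it rose to 4 in rats from 9000 up. 2 differences changed sign with a called value in these alternatives: Grin2d in CA1 against DG, -0.07 with the WT table, and Grin2c in CA3 against DG, 0.16 in rats from 9000 up. Grin3a in CA1 against CA3 did so too in rats from 9000 up, but only once the library of R9874 was left out, as given above. For the Grin2b to Grin2a ratio the count rose from 0 to 1 of 9 tests in rats from 9000 up (CA3 against DG 0.38) and with WT in place of Illumina (0.15). The cause was not tested. The replicate block on the rat, with same-numbered libraries from the same animal, left the counts at 2, 3 and 3 and changed no call of a subunit gene between subfields, while it added the Grin3a series difference of CA1 against DG, and the ratio without the block stayed at 0. For age and impairment, 0 subunit genes were called in every alternative run. Among values of single genes, 712 kept their direction and side of the threshold, 18 lost and 9 gained a call. Counting error was largest for Grin2d and Grin3a, with medians of 139 and 117 Illumina reads.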
